A study of Mus musculus with 5 samples.

Results

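Immediate-early genes are the first genes that a cell switches on after a growth signal, stretch or wounding, and the set described here holds 32 of them, many of which also respond when tissue is taken apart. They were chosen by name and make up 32 of the 15180 protein-coding genes in the deposited table. Every listed gene was in the table and passed the filter on low values. Levels were measured by RNA sequencing of total RNA from fibroblasts sorted out of the tumours of KPC mice, which model pancreatic cancer. The groups were 2 libraries from mice given LDE225 (sonidegib, a drug against Smoothened, through which Hedgehog ligands signal) and 3 libraries from mice given vehicle, each for 14 days by mouth after tumours had formed. In both groups the sorted cells excluded DAPI, carried podoplanin and lacked CD45, EpCAM and E-cadherin. The labels give no age, sex or strain and leave unsaid whether the libraries are from separate mice. The p-values therefore measure only how far these libraries spread, which may be technical.

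In resting cells these genes are quiet, with transcription factors such as SRF and CREB already sitting on their promoters. A signal through the MAP kinases ERK, JNK or p38 then starts transcription within minutes, with no new protein needed, and the messages are short-lived because AU-rich stretches in their 3′ ends recruit decay proteins. Most encode transcription factors (FOS, JUN, EGR, NR4A, KLF), and others encode the brakes of the response, such as DUSP1, which removes phosphate from MAP kinases, and ZFP36, which destabilises AU-rich messages. In fibroblasts the programme is known for following serum, mechanical stress and the enzymatic and mechanical release of cells from tissue. All 5 libraries came from sorted cells, so expression in the tumour and expression raised while the cells were released and sorted cannot be told apart.

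Upstream sequence is shown for 5 members whose promoters hold one of the motifs searched and lie outside annotated exons: Fos, the most abundant member per length, Klf4, among those that varied most between libraries, Nr4a1, Zfp36l1, the member with the smallest p, and Btg2. Each line gives 250 bases that end at the base before the first RefSeq start listed for the gene (GRCm38.p6), read 5′ to 3′ on the gene's own strand. Capitals mark a TATA motif in Fos, an EGR motif on the opposite strand in Klf4 and Nr4a1, an AP-1 motif and a TATA motif in Zfp36l1, and a cyclic AMP response element (CRE) in Btg2.
Fos, chr12:85473640-85473889, plus strand: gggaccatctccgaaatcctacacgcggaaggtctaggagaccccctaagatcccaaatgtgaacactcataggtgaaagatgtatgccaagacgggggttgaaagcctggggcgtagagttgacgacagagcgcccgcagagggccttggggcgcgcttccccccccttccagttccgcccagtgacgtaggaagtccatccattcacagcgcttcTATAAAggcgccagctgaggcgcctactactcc
Klf4, chr4:55532476-55532725, minus strand: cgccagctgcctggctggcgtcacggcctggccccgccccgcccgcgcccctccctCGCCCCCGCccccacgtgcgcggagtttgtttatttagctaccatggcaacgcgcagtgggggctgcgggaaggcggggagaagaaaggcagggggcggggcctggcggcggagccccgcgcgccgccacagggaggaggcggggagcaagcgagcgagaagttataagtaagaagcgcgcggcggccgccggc
Nr4a1, chr15:101266596-101266845, plus strand: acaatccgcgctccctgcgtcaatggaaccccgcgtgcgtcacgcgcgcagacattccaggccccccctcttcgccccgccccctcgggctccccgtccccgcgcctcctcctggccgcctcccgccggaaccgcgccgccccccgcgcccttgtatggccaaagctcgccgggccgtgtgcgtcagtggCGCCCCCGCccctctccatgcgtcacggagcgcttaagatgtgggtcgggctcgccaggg
Zfp36l1, chr12:80113014-80113263, minus strand: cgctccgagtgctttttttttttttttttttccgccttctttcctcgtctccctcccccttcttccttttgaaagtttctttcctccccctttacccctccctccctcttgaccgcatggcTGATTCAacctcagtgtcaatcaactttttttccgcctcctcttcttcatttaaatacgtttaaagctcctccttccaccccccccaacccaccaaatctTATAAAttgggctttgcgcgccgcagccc
Btg2, chr1:134079156-134079405, minus strand: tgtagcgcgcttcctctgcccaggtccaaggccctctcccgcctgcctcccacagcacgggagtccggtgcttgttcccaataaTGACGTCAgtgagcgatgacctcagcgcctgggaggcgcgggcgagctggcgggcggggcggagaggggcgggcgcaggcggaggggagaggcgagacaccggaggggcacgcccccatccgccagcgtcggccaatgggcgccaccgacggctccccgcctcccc

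An upstream window was at hand for 25 of the 32 members and for 10361 of the genes tested, and both strands were searched. Fosl1, Egr1, Egr3, Klf10, Myc, Cebpd and Ier2 had no window, and sequence further upstream than 250 bases was not searched. The EGR motif GCGGGGGCG, to which EGR proteins bind, was in the windows of 6 members (24.0%: Klf4, Fosl2, Fosb, Zfp36, Klf2 and Nr4a1), against 4.93% of all windows of that length. The median GC content was 65.2% for the members and 60.0% for all windows. TATAAA, the TATA motif, was in 4 members' windows (16.0%) and 6.59% of all. Its copies in Fos, Zfp36l1 and Btg1 began at positions -33, -29 and -26 counted from the start. The copy in Nr4a2 was on the opposite strand, at positions -164 to -159. The CRE TGACGTCA was in 2 of 25 (Btg2 and Dusp1, against 2.74% of all windows), the CArG box bound by SRF in 1 (Zfp36, as CCATAAAAGG, against 1.14%) and the AP-1 motif TGANTCA in 1 (Zfp36l1, against 4.39%). No motif hits overlapped in a member's window. The windows of Fosl2 and Zfp36, counted here, lie wholly within annotated exons of their own genes. All the hits are letter matches only.

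Most of the members were short genes. For the 31 whose identifier matched the annotation (GENCODE M21, GRCm38), the median span was 5324 bases, against 24493 bases for all genes tested. Dusp1 (56539 bases), Atf3 (47744) and Nr4a3 (41295) were the 3 members above that median of all genes. For Dusp1 and Atf3 the first RefSeq start listed lies well inside the annotated span, so the gene read from that start is shorter. Of these members 15 (48.4%) had at most 2 exons in their principal transcript, against 7.61% of all genes tested, and 7 (Jun, Junb, Jund, Cebpb, Cebpd, Ier5 and Rhob) had 1. Their 3′ UTRs were of ordinary length (median 1218 bases, against 1056), and 29 of the 30 with an annotated 3′ UTR (96.7%) held the pentamer ATTTA, the core of AU-rich elements, against 68.1%. The median was 4 copies a member and 1 copy over all genes. The longer decay element TTATTTATT was in 8 members (26.7%), among them Fos, Dusp1, Zfp36 and Zfp36l1, against 7.58% of all genes tested.

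Before any comparison, the vehicle libraries differed among themselves. The reads recovered from the normalised values came to 13671817 and 14083280 in LDE225 1 and 2 and to 7578822, 11194991 and 9319936 in vehicle 1, 2 and 3, all of them whole to within 0.001. The first principal component of all genes placed vehicle 2 at 65.2, LDE225 1 and 2 at -39.1 and -41.1, and vehicle 1 and 3 at 8.3 and 6.7. The second set vehicle 1 (70.7) apart. Gli1, a transcription factor that Hedgehog signalling induces, was lower with LDE225 (log2 fold change -4.16 ± 0.34, SE, limma adjusted p = 0.0355; edgeR adjusted p = 0.0552). The fibroblast markers Col3a1 and Col1a1 averaged 441922 ± 23818 and 376432 ± 2023 normalised counts with LDE225 (SD, n = 2), and 345081 ± 118382 and 359251 ± 137499.9 with vehicle (SD, n = 3).

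The immediate-early genes were detected in every library, and vehicle 2 stood below the rest. Their levels differed widely, from 140.0 normalised counts (Fosl1, vehicle 2) to 30264 (Fos, LDE225 2). The 32 genes together took 1.83% and 2.09% of all normalised counts in LDE225 1 and 2, against 2.03%, 0.984% and 1.80% in vehicle 1, 2 and 3. Vehicle 2 had the lowest value of the 5 libraries for 29 of the 32 genes, where it was lowest for 22.7% of all genes tested. The exceptions were Cebpb and Rhob, lowest in LDE225 1 as were 17.9% of all genes, and Egr2, lowest in vehicle 1 as were 25.0%. The median member in vehicle 2 stood at 0.618 of the mean of vehicle 1 and 3, and the median of all genes tested at 0.995. LDE225 2 was the highest library for 20 members, against 21.8% of all genes tested. It lay above LDE225 1 for 26 of the 32.

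**Figure D1:**
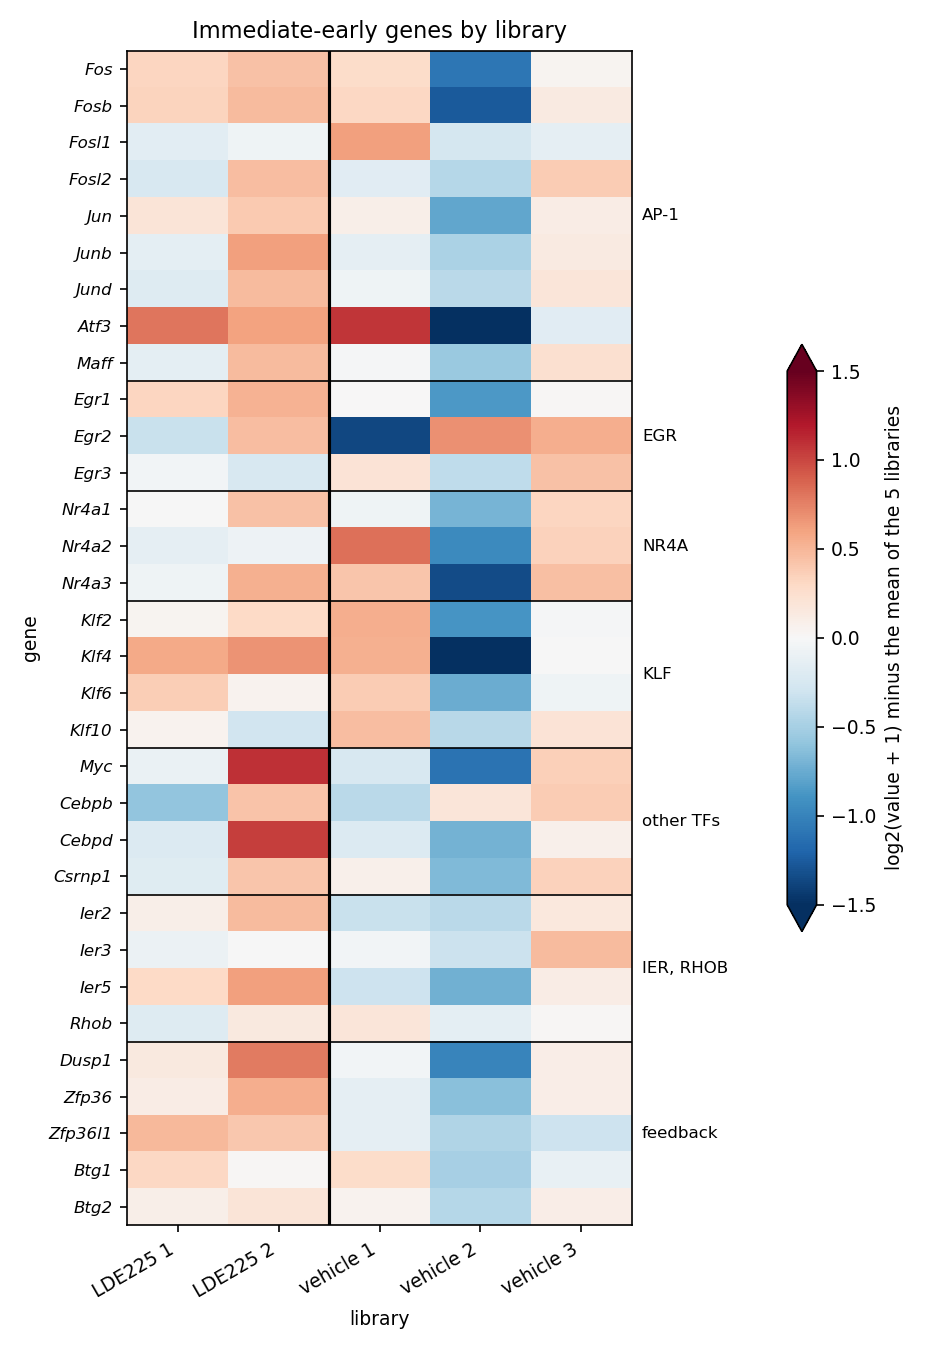
Level of each of the 32 genes (rows, grouped by role) in each library (columns, LDE225 left of the black line, vehicle right of it), as log2(normalised count + 1) minus the mean of the 5 libraries; colours saturate at 1.5 either way. The vehicle 2 column is blue for all members but Egr2 and Cebpb.

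Between LDE225 and vehicle, 0 of the 32 genes passed limma's test adjusted over all 13183 genes tested, where 3 genes in all (0.0228%) were called higher and 1 (0.00759%) lower. At an unadjusted p under 0.05 there were 2 members higher (Zfp36l1 and Ier5) and 0 lower, against 6.92% and 5.71% of all genes tested. The count tests on recovered reads called 0 members (edgeR) and 1 (DESeq2: Zfp36l1, higher, adjusted p = 0.00238), against 0.0152% and 2.30% of all genes called higher and 0% and 1.77% called lower. The log2 fold change was positive for 25 of 32 members, with a median of 0.36, against 50.4% and a median of 0.0030 for all genes tested. Both LDE225 libraries lay above all vehicle libraries for 9 members, against 16.6% of all genes tested, and below them for 0, against 15.2%. The count of 9 was 4 with the same total in every library and 4 with quantile normalisation. The share of all genes was not taken for these scalings, so the counts of 4 have no background beside them. Without vehicle 2 the median was 0.085 and 22 were positive (50.4% of all genes), with groups apart for 9 members higher and 3 lower (against 21.5% and 20.1% of all genes). Without LDE225 1 the median was 0.59 and 21 lay above every vehicle library (against 28.1% of all genes), and without LDE225 2 the median was 0.15. The 9 genes that did not overlap with all libraries were Fos, Fosb, Jun, Egr1, Klf4, Ier5, Dusp1, Zfp36 and Zfp36l1.

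**Figure D2:**
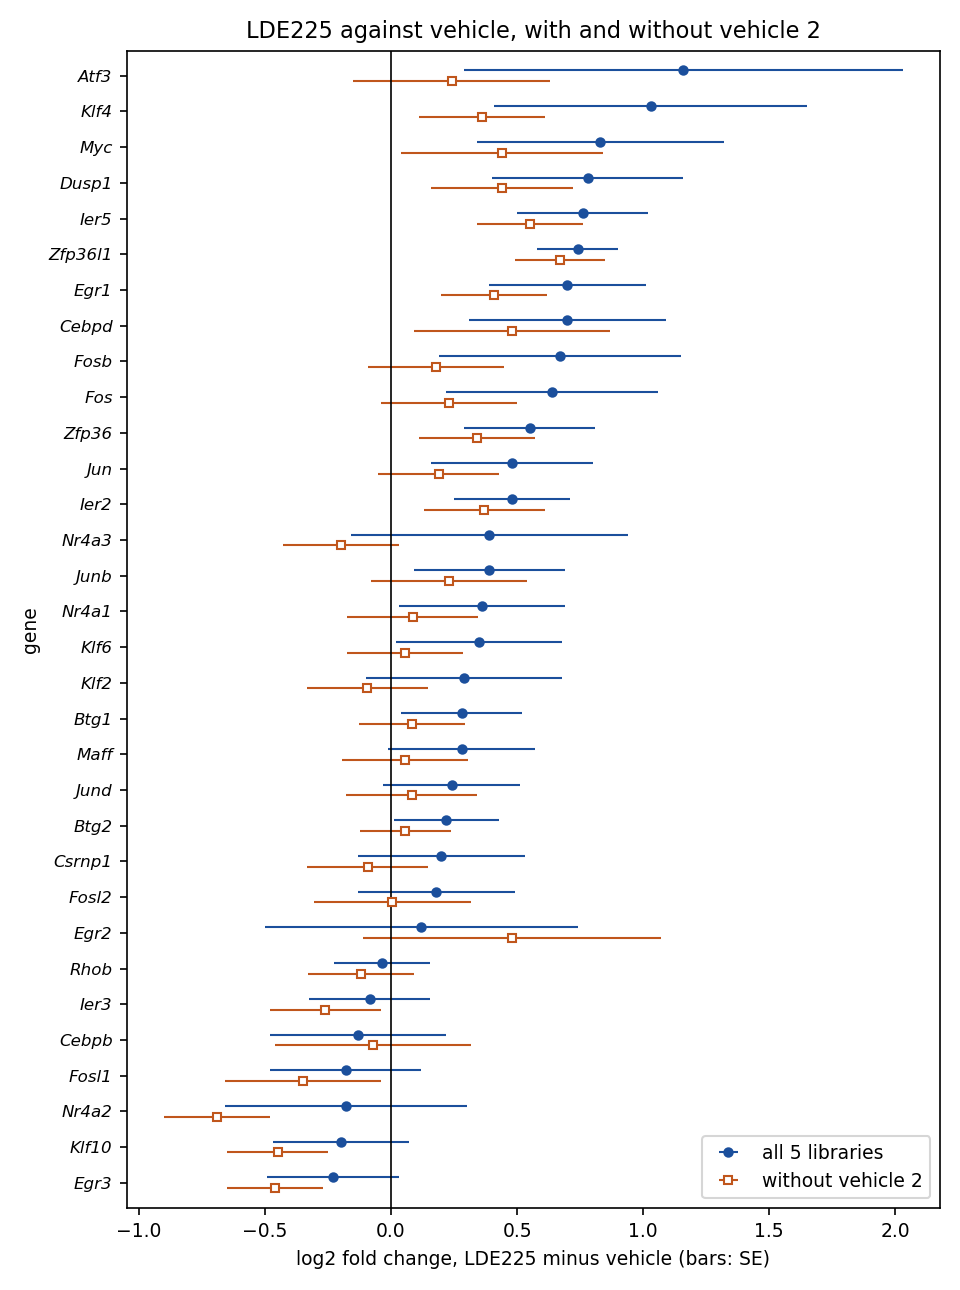
Log2 fold change of each gene, LDE225 minus vehicle, on the log2(normalised count + 1) scale with its standard error, from limma on all 5 libraries (filled circles) and without vehicle 2 (open squares). Of the filled circles 25 lie right of 0, and leaving out vehicle 2 moves every gene but Egr2 and Cebpb to the left.

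The AP-1 genes encode partners of a dimeric transcription factor, in which a FOS protein pairs with a JUN protein. The log2 fold change was above 0 for 8 of the 9, and its median was 0.39, or 0.18 without vehicle 2. Fos was at 27739 and 30264 normalised counts with LDE225, against 26893, 10539.6 and 22839 with vehicle. Its LDE225 values lay above all 3 vehicle values, vehicle 1 was only just below LDE225 1, and vehicle 2 was under 50% of either other vehicle library. The log2 fold change of Fos was 0.64 ± 0.42 (SE, limma adjusted p = 0.600), and 0.23 ± 0.27 without vehicle 2. The gene (ENSMUSG00000021250.13) spans bases 85473890 to 85477273 of chromosome 12 (GRCm38, plus strand).

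Fosb, its close relative, followed the same order of libraries, with 25909.5 and 28862 with LDE225 and 25708, 8618 and 22808 with vehicle (log2 fold change 0.67, and 0.18 without vehicle 2). Jun was at 17575 and 20273 with LDE225, against 16472, 8986 and 16697 with vehicle (log2 fold change 0.48 ± 0.32, limma adjusted p = 0.608, and 0.19 without vehicle 2). Vehicle 2 was the one low library for Jun, with vehicle 1 and 3 close together. Junb, which encodes a JUN protein that can restrain cell division, had 11122 and 18980.0 with LDE225 and 11309.9 and 13596 with vehicle 1 and 3, so that LDE225 1 lay inside the vehicle range. Jund, the JUN gene that is least dependent on a stimulus, and Fosl2 had the same shape, with LDE225 2 highest and vehicle 2 lowest.

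Atf3, a stress-induced factor of the ATF family that dimerises with JUN proteins, varied most. It was at 5706 and 4966 with LDE225, against 6907, 667 and 2921 with vehicle, a 10.4-fold range over the 5 libraries. The 2 groups overlapped, with vehicle 1 highest. Its log2 fold change of 1.16 ± 0.87 (limma adjusted p = 0.645) was the highest of the 32. It was 0.24 without vehicle 2, 1.93 without vehicle 1 and 0.61 in edgeR. Maff, a small MAF protein without an activation domain of its own, averaged 775 ± 237 with LDE225 (SD, n = 2) and 640.3 ± 171 with vehicle (SD, n = 3). Fosl1, a FOS relative that is made later and lasts longer, was the least abundant member per length, with normalised counts of 150.2 and 161 with LDE225 and 256, 140.0 and 153 with vehicle.

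**Figure D3:**
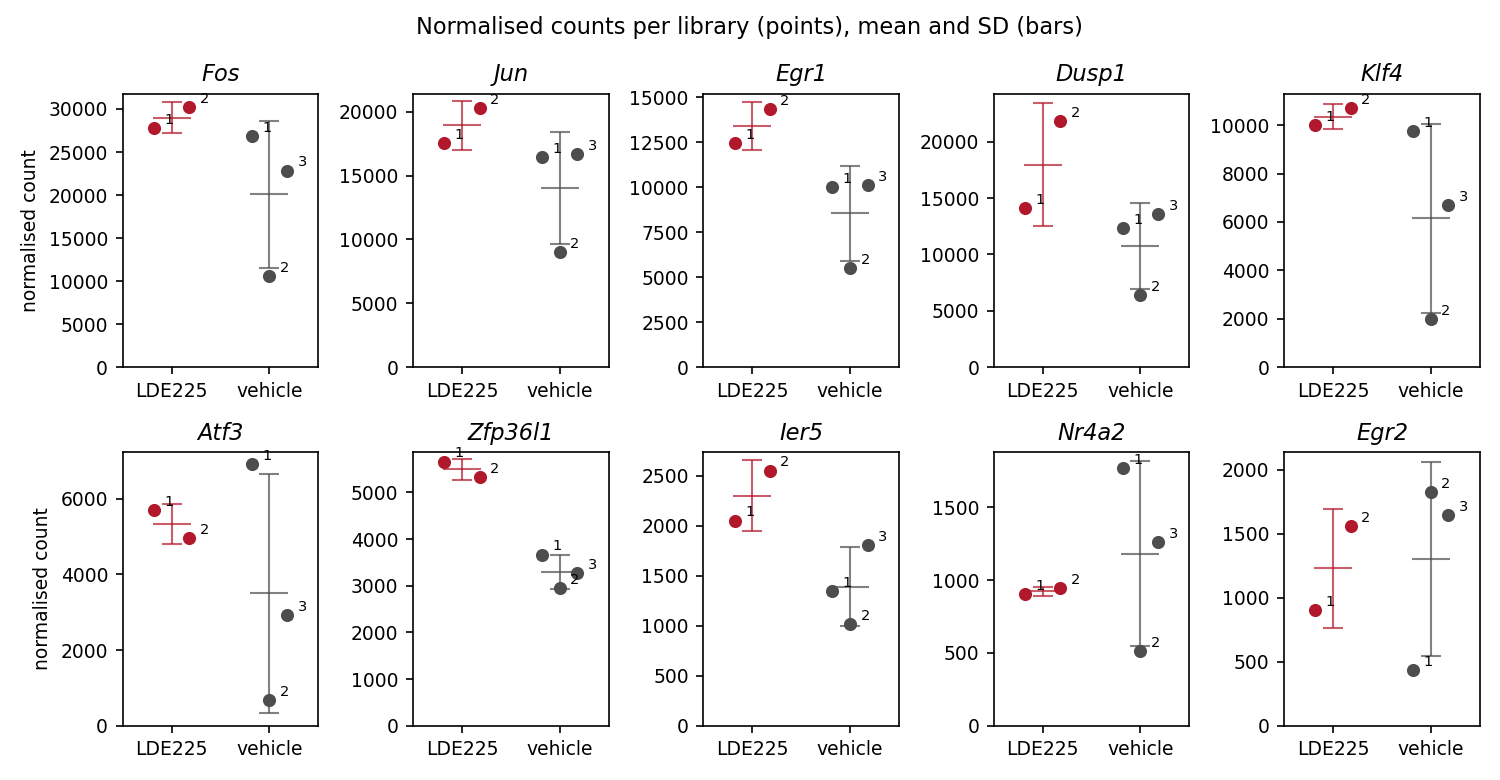
Normalised counts of 10 of the genes in each library (points, numbered by replicate), with the mean and SD of each group (n = 2 LDE225, left; n = 3 vehicle, right); every axis starts at 0. Vehicle 2 is the lowest point for 9 of the 10 genes and the highest for Egr2.

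The EGR genes encode zinc finger factors, and the order of the libraries differed among the 3. Egr1, the usual readout of ERK signalling, was at 12459 and 14347 with LDE225, against 10010.1, 5494 and 10112 with vehicle. Both LDE225 libraries were above the vehicle range, and the log2 fold change was 0.70 ± 0.31 (limma adjusted p = 0.418) with all libraries and 0.41 ± 0.21 without vehicle 2. Egr2 had another order among the vehicle libraries: 899.8 and 1556 with LDE225, against 435, 1823 and 1644 with vehicle. Vehicle 2 was the highest library for Egr2 and vehicle 1 the lowest, and the groups overlapped. Egr3 had 436 and 379 with LDE225 and 516, 344 and 609 with vehicle, so that LDE225 lay below vehicle 1 and 3 and above vehicle 2.

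The NR4A genes encode orphan nuclear receptors that act without a known hormone and are regulated by how much is made. The median log2 fold change of the 3 was 0.36, and -0.20 without vehicle 2. Nr4a1 was at 9857 and 13406 with LDE225, against 9469.8, 6086 and 12364 with vehicle. Nr4a2 was at 902 and 945 with LDE225, against 1771, 513 and 1261 with vehicle. The LDE225 values of Nr4a2 were close to each other and lay between vehicle 2 and the other vehicle libraries. Its log2 fold change was -0.18 ± 0.48 (limma adjusted p = 0.918), and -0.69 ± 0.21 without vehicle 2 (limma adjusted p = 0.321), where the groups no longer overlapped. Without vehicle 1 it was 0.20. Nr4a3 ranged from 755 in vehicle 2 to 2769 in LDE225 2, and its log2 fold change was 0.39 with all libraries, -0.20 without vehicle 2 and 0.70 without vehicle 3.

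Among the 4 KLF genes, which encode zinc finger factors that bind GC-rich promoters, Klf4 varied most. Their median log2 fold change was 0.32, and -0.019 without vehicle 2. Klf4 was at 9999.6 and 10718 with LDE225, against 9753, 1999 and 6697 with vehicle. The LDE225 libraries and vehicle 1 were close together, vehicle 3 was lower and vehicle 2 lowest. The log2 fold change was 1.03 ± 0.62 (limma adjusted p = 0.561) and 0.36 ± 0.25 without vehicle 2. Klf2, known from its response to fluid shear in endothelium, had 2579.6 and 3099 with LDE225 and 3682, 1367 and 2475 with vehicle. Klf6 averaged 6264 ± 963 with LDE225 (SD, n = 2) and 5116 ± 1881 with vehicle (SD, n = 3). Klf10, which TGF-beta induces, had a log2 fold change of -0.20 ± 0.27 (limma adjusted p = 0.820), and -0.45 without vehicle 2, where both LDE225 libraries lay below vehicle 1 and 3.

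LDE225 2 was the highest library for all 4 of the other transcription factors, Myc, Cebpd, Cebpb and Csrnp1. Myc, a driver of growth and ribosome production, was at 670.0 and 1525 with LDE225, against 605, 331 and 922 with vehicle. Cebpd, a C/EBP factor of the acute phase response, was at 1141 and 2705 with LDE225, against 1144, 800.5 and 1386 with vehicle. In both Myc and Cebpd, LDE225 1 sat within the vehicle range. The log2 fold change was 0.83 ± 0.49 for Myc and 0.70 ± 0.39 for Cebpd (limma adjusted p = 0.559 and 0.533). It was 0.23 for Myc and 0.075 for Cebpd without LDE225 2, and 1.42 for Myc and 1.32 for Cebpd without LDE225 1. Without vehicle 2 it was 0.44 for Myc and 0.48 for Cebpd. Cebpb, a C/EBP factor that works in inflammation and fat cell formation, had 2251 and 4568 with LDE225 and 2564, 3832 and 4424 with vehicle, so that vehicle 2 was not low. Csrnp1, a nuclear protein induced by AXIN1, averaged 3373 ± 971 with LDE225 (SD, n = 2) and 3000.1 ± 979 with vehicle (SD, n = 3).

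Ier5, whose product acts on heat shock factor HSF1, was at 2053 and 2552 with LDE225, against 1349.5, 1015 and 1807 with vehicle. Both LDE225 libraries lay above vehicle 3, the highest vehicle library. Its log2 fold change was 0.76 ± 0.26 (limma adjusted p = 0.304) and 0.55 ± 0.21 without vehicle 2. Ier2 had 3212 and 4207 with LDE225 and 2399.6, 2274 and 3366 with vehicle, an overlap through vehicle 3 alone. Ier3, a survival factor of the NF-kB response, and Rhob, a short-lived small GTPase, had log2 fold changes of -0.085 ± 0.24 and -0.036 ± 0.19. Rhob was the steadiest of the 32, with a highest value 1.30 times its lowest.

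The brakes of the response had log2 fold changes above 0 for 5 of 5 genes. The median was 0.55, or 0.34 without vehicle 2. Zfp36l1, an AU-rich element binding protein that speeds decay of its target messages, was at 5659.7 and 5332 with LDE225, against 3668, 2958 and 3264 with vehicle. Here vehicle 2 was only slightly below the others, and the 2 groups were far apart relative to their spread. Its log2 fold change was 0.74 ± 0.16 (limma adjusted p = 0.165), and 0.67 ± 0.18 without vehicle 2. The gene (ENSMUSG00000021127.7) spans bases 80107754 to 80113013 of chromosome 12 (GRCm38, minus strand) and overlaps the lincRNA gene Gm26669 on the opposite strand. Its relative Zfp36 averaged 7918 ± 1659 with LDE225 (SD, n = 2) and 5477 ± 1354 with vehicle (SD, n = 3), with 6744 in LDE225 1 and 6701 in vehicle 3.

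Dusp1, the MAP kinase phosphatase, was at 14116 and 21834 with LDE225, against 12326, 6394 and 13550.3 with vehicle. LDE225 1 was just above vehicle 3, and LDE225 2 well above every other library. The log2 fold change was 0.78 ± 0.38 (limma adjusted p = 0.466), 0.47 without LDE225 2 and 0.44 without vehicle 2. Btg2 and Btg1, which encode antiproliferative adaptors of the CCR4-NOT deadenylase, averaged 6522 ± 326 and 1827 ± 261 with LDE225 (SD, n = 2) and 5652 ± 1070.3 and 1535 ± 407 with vehicle (SD, n = 3), with vehicle 2 lowest in both.

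Per length of exon, Fos led the members, with 12331 normalised counts per kilobase with LDE225 and 8542 with vehicle. Junb (6541 with LDE225, 4905 with vehicle), Jun (5934 with LDE225, 4406 with vehicle) and Dusp1 (5429 with LDE225, 3249 with vehicle) followed in the order of the vehicle levels, and Fosl1 was last (76.4 with LDE225, 90.0 with vehicle). In the vehicle libraries Junb and Jun differed by less than the SD of either, and so did Dusp1, Jund and Fosb (3249, 3063 and 3051 per kilobase). Ier2 had no matched gene model and was left out. Of the 31 with a model, 11 overlap another annotated gene, such as Jun with its antisense RNA Junos. The kit was directional, but whether counting used strand is not given in the sources used here.

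Vehicle 2 was also low for other genes of the same response. In a further list of 40 immediate-early response genes, vehicle 2 was lowest of the 5 libraries for 23, against 22.7% of all genes tested, and the mean centred log2 level was -0.048 and 0.30 in LDE225 1 and 2 and -0.056, -0.46 and 0.26 in vehicle 1, 2 and 3. Of these, 27 had positive fold changes (median 0.26, and 0.10 without vehicle 2), and 0 passed limma's test, edgeR or DESeq2. At an unadjusted limma p under 0.05 there were 3 higher and 0 lower, against 6.92% and 5.71% of all genes tested. Ccn1, a matricellular YAP target, had the smallest p, with 5513 and 4737 with LDE225 against 3319.7, 3838 and 3877 with vehicle. The chemokine Cxcl1 had 4655 and 5431 with LDE225 and 1939.6, 1353 and 4101 with vehicle. Sgk1, a serum- and glucocorticoid-induced kinase, and Gem, a small GTPase, had log2 fold changes of 0.88 and 1.34 (limma adjusted p = 0.360 and 0.421), and 0.67 and 0.70 without vehicle 2.

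Heat shock genes, chaperones that also respond to tissue dissociation, were lowest in vehicle 2 for 10 of 16, against 22.7% of all genes tested. Their mean centred level was 0.14 and -0.055 in LDE225 1 and 2 and 0.062, -0.30 and 0.16 in vehicle 1, 2 and 3, so LDE225 2, highest for most immediate-early genes, was not high here. Their median log2 fold change was 0.040, with 9 positive and 0 called by limma, edgeR or DESeq2. At an unadjusted limma p under 0.05 there was 1 higher (Dnajb4) and 0 lower, against 6.92% and 5.71% of all genes tested. Dnajb4 had 570.4 and 749.7 with LDE225 and 455, 454 and 461 with vehicle. Hspa1a, an inducible HSP70 gene, had 3095 and 2714 with LDE225 and 2633, 1916 and 2234 with vehicle, whereas its near-identical neighbour Hspa1b had 2198 and 1608 with LDE225 and 2527, 2287 and 2235 with vehicle. Here how reads were divided between this pair is uncertain. Dnajb1, an HSP40 co-chaperone, ranged from 452 in vehicle 2 to 1722 in LDE225 1.

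**Figure D4:**
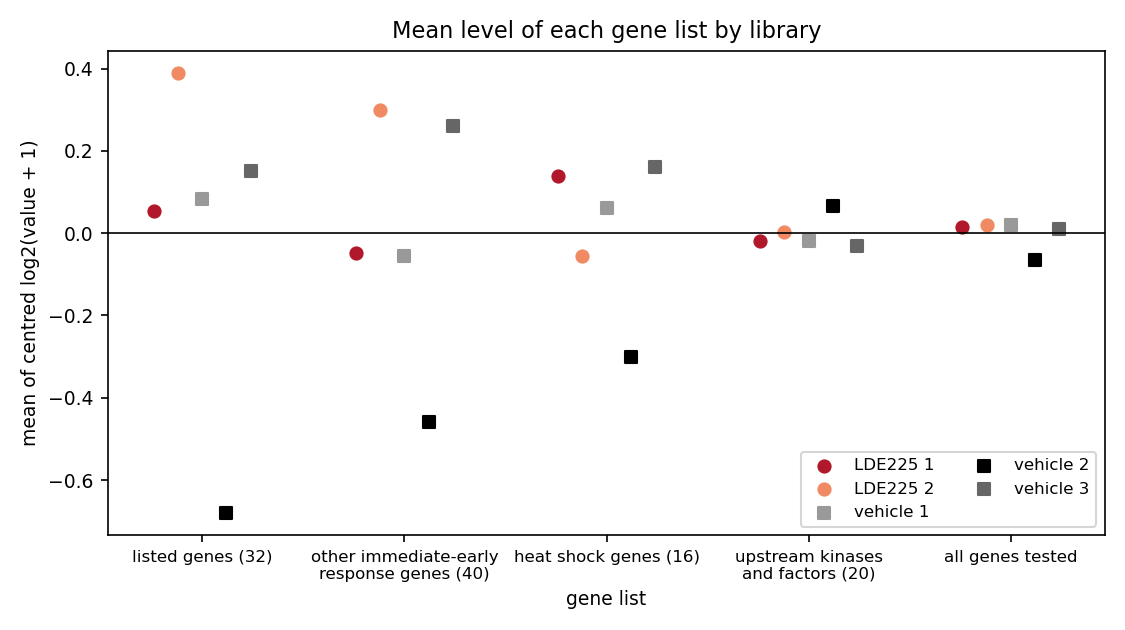
Mean over the genes of each list of the centred log2(normalised count + 1), 1 point per library (circles LDE225, squares vehicle). Vehicle 2 lies lowest for the 32 listed genes (-0.68), for the 40 other immediate-early response genes (-0.46) and for the heat shock genes (-0.30). It is also lowest, by much less, for all genes tested (-0.066), but not for the upstream kinases and factors (0.066).

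The kinases and factors upstream were mostly not low in vehicle 2. Vehicle 2 was lowest for 4 of 20, against 22.7% of all genes tested. The median log2 fold change was 0.070, with 0 called by limma, edgeR or DESeq2. At an unadjusted limma p under 0.05 there were 3, 1 higher and 2 lower, against 6.92% and 5.71% of all genes tested. These 3 were the kinase genes Rps6ka1 (102 and 64.2 with LDE225, against 184, 216 and 141 with vehicle) and Map2k2 (log2 fold change -0.45), both lower, and the receptor gene Egfr (4955 and 4935 with LDE225, against 3911, 3982 and 3819.9 with vehicle), which was higher. Rps6ka3 followed (0.44 ± 0.20).

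Some markers of other cells moved with vehicle 2 as well. The 9 leukocyte markers summed to 1023 and 1177 normalised counts with LDE225, and to 1834, 672 and 1266 with vehicle. Vehicle 2 was lowest of the 5 libraries for 5 of the 8 tested, against 22.7% of all genes tested. The lymphatic endothelial markers summed to 388 and 497 with LDE225 and to 591, 219 and 964 with vehicle. The sum of the pericyte and smooth muscle markers went the other way, with 1225 and 2061 with LDE225 and 1496, 5206 and 3225 with vehicle. Vehicle 2 was the highest library for 3 of these 6 markers (Notch3, Cspg4 and Mcam), against 3002 of all 13183 genes tested. It was the lowest library for 2 (Rgs5 and Kcnj8), against 22.7% of all genes tested. Mitochondrial transcripts made up 0.596% and 0.452% of normalised counts with LDE225 and 0.592%, 0.491% and 0.613% with vehicle. The neutrophil markers summed to 89.2 and 26.2 with LDE225 and to 270.2, 18.3 and 11.6 with vehicle, with S100a8, Retnlg and Cxcr2 at 0 in at least 1 library. The blood endothelial markers summed to 840.3 and 1141 with LDE225 and to 1129, 744 and 1493 with vehicle, and the acinar ones to 164 and 1036 with LDE225 and to 1118, 126 and 457 with vehicle. Of the vehicle libraries, vehicle 2 had the lowest sum of the epithelial markers (5916 and 2164 with LDE225, against 6541, 5963 and 6241 with vehicle) and of the mesothelial ones (3503 and 3359 with LDE225, against 9375, 3524 and 4381 with vehicle), while an LDE225 library was lowest of all 5 in both. Vehicle 2 was the lowest vehicle library for 4 of 7 epithelial and 4 of 4 mesothelial markers, against 4252 of all 13183 genes tested. It stood at a median of 0.815 and 0.531 of the mean of vehicle 1 and 3, against 0.995 for all genes tested. For the epithelial Krt7 and Krt18 it was the highest of all 5 libraries. The lymphocyte markers Cd3e and Cd79a were each at 0 in at least 1 library and together came to at most 14.0 counts. The 9 fibroblast markers made up 10.3% and 10.2% of normalised counts with LDE225 and 6.50%, 10.1% and 11.2% with vehicle, a sum led by the collagen genes Col1a1, Col1a2 and Col3a1. The other markers of that list went different ways in vehicle 2 and are named here after their values were seen. Dcn, a matrix proteoglycan gene, was at 41128 and 44495 with LDE225, against 29291, 10780.1 and 22175 with vehicle. Pdpn, the gene of the sort marker podoplanin, was at 4665 and 5183 with LDE225, against 4052, 2123 and 4032 with vehicle. Lum, another proteoglycan gene, was at 9800.3 and 10039 with LDE225, against 2301, 2049 and 5633 with vehicle. Vehicle 2 was the lowest library for these 3, though Lum was nearly as low in vehicle 1 (2301). Thy1 was highest there, at 1715 and 1843 with LDE225, against 2177, 6597 and 3481 with vehicle. So was Pdgfrb, at 5565 and 6856 with LDE225, against 2539.8, 9568 and 4791 with vehicle. Pdgfra was lowest in vehicle 3, at 14896 and 13015 with LDE225, against 14070.2, 9364 and 8200.0 with vehicle. Of the 9 fibroblast markers the groups did not overlap for 3 higher, Dcn, Lum and Pdpn (log2 fold changes 1.16, 1.73 and 0.59), against 16.6% of all genes tested. They did not overlap for 1 lower, Thy1 (-1.05), against 15.2%. Limma's adjusted p was between 0.200 and 0.492 for these 4 markers. DESeq2 called 1 fibroblast marker higher, against 2.30% of all genes. It called the epithelial Krt8 and Krt19 and the mesothelial Msln lower (DESeq2 adjusted p = 0.0358, 0.0350 and 0.0192), against 1.77%. In these 3 marker lists limma and edgeR called 0. Of the leukocyte markers 0 were at 0 in any library. Ptprc, the CD45 gene sorted against, stood at 27.3 and 18.6 with LDE225 and at 104, 8.69 and 16.3 with vehicle. The epithelial genes sorted against were higher than Ptprc in every library. Epcam was at 687 and 78.6 with LDE225, against 325, 71.5 and 213 with vehicle. Cdh1, the E-cadherin gene, ranged from 191 in LDE225 2 to 739 in vehicle 1. The part of any of these in the low immediate-early levels of vehicle 2 was not tested. In bulk RNA, fewer cells of a type and less RNA per cell cannot be told apart.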

How the data were processed

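Total RNA of sorted cells was depleted of ribosomal RNA and sequenced in pairs, per the labels' protocols. The deposited table holds the signal the authors made: gene counts divided by DESeq2 size factors, for 15180 genes. Per the submitters' processing notes, STAR 2.7.3, RSEM 1.2.29 and DESeq2 1.22.2 were used with GRCm38. The sources used here do not name the annotation release, gene filter or strand setting. A further 3 columns without a header were not used. Values were whole multiples of a unit per library, from which reads were recovered (100% whole within 0.001).

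Genes with a mean of at least 10 (13183) were tested with limma 3.58.1 in R 4.3.3 (two-sided, log2(value + 1), mean trend, Benjamini-Hochberg adjustment over all of them, threshold 0.05). Fold changes on this scale understate those of low genes. Alternatives were edgeR 4.0.16 and DESeq2 1.42.0 on recovered reads, other pseudocounts, filters and scalings, a replicate block, and leaving out each library. The fitting steps were tested on simulated data. All 32 genes are named, with the 4 genes of smallest p of each other response list and the 2 of highest mean of each marker list considered. The members and lists were chosen with earlier results of these data known. Gene models came from GENCODE M21 and upstream sequence from RefSeq tables (GRCm38.p6).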

Additional observations from a re-analysis of the deposited data

How the results depend on the processing

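Other pseudocounts and filters on low values moved none of the 32 genes to another direction or side of the threshold. Over all genes limma called 3 higher and 1 lower with LDE225. The lower count was 2 with the same total in every library, and 0 both for limma without a trend and for edgeR. DESeq2 called 303 higher and 233 lower, and 1 of the 32 listed genes (Zfp36l1, adjusted p = 0.00238). Leaving out 1 library gave 0 to 6 higher and 0 to 4 lower. The 9 listed genes above every vehicle library became 4 with the same total and 4 with quantile normalisation, scalings without a share of all genes taken. When 1 library was left out they became 9 (without vehicle 2, against 21.5% of all genes) to 21 (without LDE225 1, against 28.1%). Those below every vehicle library, 0 in all, became 0 to 3 (3 without vehicle 2, against 20.1%). The cause was not tested. Egr2 (0.12) turned to -0.018 with the same total and to -0.082 in edgeR and in DESeq2.

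Leaving out 1 library turned the direction of 13 genes, whose log2 fold changes then ranged from -0.64 to 0.38 (Cebpb), -0.10 to 0.49 (Csrnp1), -0.55 to 0.51 (Egr2), -0.35 to 0.087 (Fosl1), -0.16 to 0.53 (Fosl2), -0.26 to 0.13 (Ier3), -0.00018 to 0.77 (Junb), -0.10 to 0.57 (Jund), -0.094 to 0.62 (Klf2), -0.039 to 0.59 (Maff), -0.69 to 0.20 (Nr4a2), -0.20 to 0.70 (Nr4a3) and -0.21 to 0.14 (Rhob). Where LDE225 was left with 1 library, that library was assumed to vary like the vehicle ones.

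The groups share replicate numbers 1 and 2, which the labels do not tie to a litter or day, and deviations of same-numbered libraries correlated at 0.132 and -0.0174 across genes. The fit with the replicate block used replicates 1 and 2 only and so left out vehicle 3. It called 33 genes higher and 6 lower, 0 of them listed. Cebpb turned to 0.033 and Ier3 to 0.13, the values also given by leaving out vehicle 3 without a block. With 2 libraries against 3, the spread of the vehicle libraries limits which differences could be seen.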
